A study of Homo sapiens with 6 samples.

Results

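NR4A1 (Nur77), NR4A2 (Nurr1) and NR4A3 (NOR1) make up the NR4A family of orphan nuclear receptors, and they are 3 of the 60591 rows of the count table, found by these symbols. RNA-seq was made from MDA-MB-231, a human breast cancer line, in a variant that homes to bone, kept in a 3-dimensional loading model. The groups, of 2 libraries each, were static cells (0 mL/min), cells under low flow (1 mL/min) and cells under high flow (15 mL/min), to mimic the fluid shear of loaded bone. All groups share the line and the variant, and the labels name no other treatment. The labels do not say that the libraries of a group came from separate cultures, and the spread that the p-values rest on may be technical. The 3 genes were chosen by their counts in these same 6 libraries, with all comparisons between the groups in view, so their levels and differences are given as a description.

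NR4A receptors bind DNA as monomers, as dimers or paired with a retinoid X receptor. Their ligand pocket is filled by bulky side chains, so the amount of protein made is taken as the main control of their activity. They are immediate early genes: calcium, cAMP and growth factor signals switch them on within minutes, without new protein synthesis, through factors such as CREB and MEF2. Vascular and bone cells are known to induce them after mechanical or hormonal stimulation.

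Library totals ran from 17822642 to 53279537 counts and were lowest in static libraries. By the column names the high flow libraries were sequenced in another lane than the static and low flow libraries. Their column names also differ in form and suffix. Effects of the lane, or of any other step that differed along with it, cannot be told apart from the flow rate wherever high flow is compared. The labels call the cell type endothelial. Of 8 endothelial markers, TIE1, ESAM and PECAM1 had 9211, 7918 and 2827 counts over all libraries. KDR, TEK and VWF had 207, 122 and 35 counts, and CDH5 and CLDN5 had 3 counts and 1 count. The 8 endothelial markers summed to 91.3 to 94.7 CPM (counts in each 1e+06 of a library's total, scaled by TMM factors) in high flow, 82.1 to 95.4 CPM in low flow and 65.2 to 87.5 CPM in static libraries, mostly TIE1 and ESAM. VIM, high in this line, had 3618 to 5031 CPM, and CDH1, which the line is known to lack, had 8 counts in all. The 6 leukocyte markers summed to 261 to 342 CPM in high flow, 272 to 275 CPM in low flow and 304 to 311 CPM in static libraries, nearly all of it CD68. The 6 osteoblast markers summed to 51.3 to 52.9 CPM in high flow, 55.3 to 58.5 CPM in low flow and 65.9 to 68.1 CPM in static libraries, nearly all of it RUNX2, with IBSP at 0. Single markers moved under the sums: against static edgeR called PECAM1 higher in both flow groups (1.47-fold in high flow and 1.62-fold in low flow), and KDR and RUNX2 lower in high flow (2.61-fold and 1.29-fold). Of the line's markers it called KRT18 higher in high flow and low flow (1.33-fold and 1.26-fold), and KRT8 and ERBB2 higher in high flow (1.33-fold and 1.26-fold). These 6 were named after their values were seen, and the part of the markers in the results was not tested.

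In GENCODE 29 on GRCh38, NR4A1 lies on chromosome 12 (52022832 to 52059507, plus strand), NR4A2 on chromosome 2 (156324432 to 156342348, minus strand) and NR4A3 on chromosome 9 (99821855 to 99866891, plus strand). NR4A2 and NR4A3 overlap no other gene there, and NR4A1 overlaps 1 lincRNA on the opposite strand. The count table also lists an antisense transcript, NR4A1AS, with 10 and 2 counts in high flow, 0 and 1 in low flow and 0 and 1 in static libraries, against 350 to 6301 counts for NR4A1. RefSeq on GRCh38.p14 gave windows before 2 starts of NR4A1 and 1 start of NR4A3. No window was available for NR4A2, so the 250 bases before each start are shown for NR4A1 and NR4A3 only. Capitals mark TGACG or its reverse complement, the core of the cAMP response element that CREB binds.
NR4A3, chr9:99821635-99821884, plus strand: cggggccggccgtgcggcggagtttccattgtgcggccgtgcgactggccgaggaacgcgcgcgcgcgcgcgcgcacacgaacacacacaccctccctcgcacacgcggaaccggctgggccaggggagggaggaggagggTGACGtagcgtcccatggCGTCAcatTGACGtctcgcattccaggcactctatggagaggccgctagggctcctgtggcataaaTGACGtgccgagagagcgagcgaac
NR4A1, chr12:52022582-52022831, plus strand: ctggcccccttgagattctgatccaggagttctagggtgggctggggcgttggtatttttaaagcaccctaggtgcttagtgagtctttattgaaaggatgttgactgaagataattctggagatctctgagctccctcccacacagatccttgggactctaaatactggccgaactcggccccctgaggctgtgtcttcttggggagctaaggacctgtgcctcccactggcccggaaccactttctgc
NR4A1, chr12:52037465-52037714, plus strand: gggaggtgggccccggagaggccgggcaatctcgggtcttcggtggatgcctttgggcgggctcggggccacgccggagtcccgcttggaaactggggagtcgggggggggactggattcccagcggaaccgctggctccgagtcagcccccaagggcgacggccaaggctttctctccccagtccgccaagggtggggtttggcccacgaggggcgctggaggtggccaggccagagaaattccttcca

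The NR4A3 window held 4 of these cores, beginning 109, 91, 83 and 25 bases before the start, and its last 30 bases lie in a GENCODE 29 exon of NR4A3. Neither NR4A1 window held one, and no other bases of NR4A1, which runs to 52059507, were searched. The first NR4A1 window lies in no GENCODE 29 gene and the second in an intron of NR4A1. Of 35116 RefSeq windows of the same length 21.2% held at least 1 core and 0.236% at least 4. Searched on both strands, the full element TGACGTCA, which holds a core on each strand, was in 1.65% of all windows and in none of these 3. The NR4A monomer site AAAGGTCA (1.05% of all windows) and the AP-1 site TGANTCA (6.57%) were also in none of the 3.

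NR4A1 was lowest in static cells, higher under low flow and highest under high flow. NR4A3 was alike in static and low flow cells and 3.24-fold higher in high flow than in static cells. NR4A2 overlapped between all groups. In these bulk libraries fewer cells that express a gene and less of its RNA per cell cannot be told apart. For high flow against static, edgeR's quasi-likelihood test across 20676 genes with Benjamini-Hochberg adjustment called 1 of the 3 genes, NR4A3, and 13.9% of all genes (7.49% higher and 6.43% lower). For high flow against low flow it again called 1 of the 3, NR4A3, and 0.334% of all genes (0.242% higher and 0.0919% lower). For low flow against static edgeR called 0 of the 3 and 6.74% of all genes (3.25% higher and 3.49% lower), DESeq2 called 0 of the 3 and 11.6% of the genes to which it gave an adjusted p, and 0 of the 3 had an unadjusted p under 0.05, as 23.5% of all genes did. The genes were chosen with these comparisons in view, so nothing is read from these counts.

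**Figure D1:**
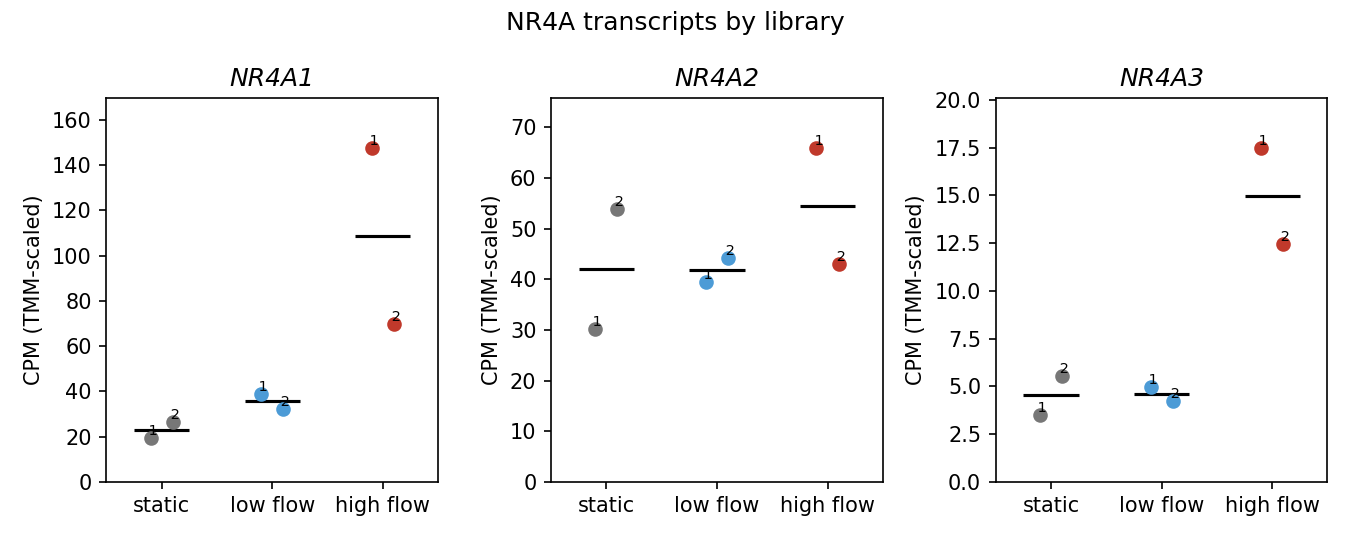
Level of each NR4A gene in CPM (linear axis from 0) in the 6 libraries by flow condition, with points for libraries, marked by replicate number, and bars for the means of 2. NR4A1 and NR4A3 reached 147 and 17.5 CPM in the first high flow library, while the groups of NR4A2 overlapped.

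NR4A1 acts in apoptosis, metabolism and cell migration. It had 19.3 and 26.6 CPM in static, 38.7 and 32.3 CPM in low flow, and 147 and 69.8 CPM in high flow libraries. The groups did not overlap and followed the flow rate, an order without overlap that 5.10% of all tested genes had. Means were 22.9 ± 5.17 CPM in static, 35.5 ± 4.53 CPM in low flow and 109 ± 54.9 CPM in high flow libraries (SD, n = 2 each).

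The fitted log2 fold change of NR4A1 was 2.23 (SE 0.50) for high flow against static, 1.61 (SE 0.47) for high flow against low flow and 0.62 (SE 0.50) for low flow against static. edgeR called none of the 3, and DESeq2 called high flow against static at 2.24, with 17.4% of the genes to which it gave an adjusted p. The high flow libraries lay 2.11-fold apart, and 0.509% of 15524 genes averaging 1 CPM or more had high flow libraries at least as far apart. Leaving out 1 library leaves its group with 1, which is then assumed to vary like the libraries of the other groups, here and in all refits below. Without high flow replicate 1 the log2 fold change for high flow against static was 1.60, and without high flow replicate 2 it was 2.67. For high flow against low flow the values were 0.98 and 2.05. edgeR called 1.60, 2.67 and 2.05, but these fits no longer hold the gap between the high flow libraries, so the calls are no support for the difference. For low flow against static edgeR called the difference with high flow replicate 1 or 2 left out (0.63 and 0.62). It also called the difference with only the static and low flow libraries, which share a lane (0.62). The same gap is missing from the spread in all of these fits. Each high flow library was above all 4 others, and the size of the difference moved with the library left out.

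NR4A3 acts in vascular muscle growth and in blood cell development. It had 3.53 and 5.56 CPM in static, 4.98 and 4.22 CPM in low flow, and 17.5 and 12.5 CPM in high flow libraries. The lowest value rests on 64 counts, with an exact 95% Poisson interval of 2.72 to 4.51 CPM that covers counting error only. Both high flow libraries were above the other 4, and both low flow values lay between the static ones.

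The log2 fold change of NR4A3 was 1.70 (SE 0.22) for high flow against static, 1.70 (SE 0.20) for high flow against low flow and -0.002 (SE 0.23) for low flow against static. Over the 12 alternatives it was called for high flow against static each time, at 1.43 to 2.09. For high flow against low flow the call ended without high flow replicate 1, where the log2 fold change was 1.44. Ordered by fitted log2 fold change, NR4A3 ranked 147 of 20676 genes for high flow against static and 28 for high flow against low flow, and NR4A1 ranked 54 and 38.

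NR4A2 is needed for the development of midbrain dopamine neurons. It had 30.2 and 53.9 CPM in static, 39.5 and 44.3 CPM in low flow, and 65.9 and 43.1 CPM in high flow libraries. The second high flow library was below the second static library, and both low flow libraries lay between the static ones. Its log2 fold change was 0.36 (SE 0.39) for high flow against static, 0.38 (SE 0.38) for high flow against low flow and -0.01 (SE 0.39) for low flow against static, and none was called under any alternative. Changes of NR4A2 as small as the gaps between its libraries could not be detected here.

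**Figure D2:**
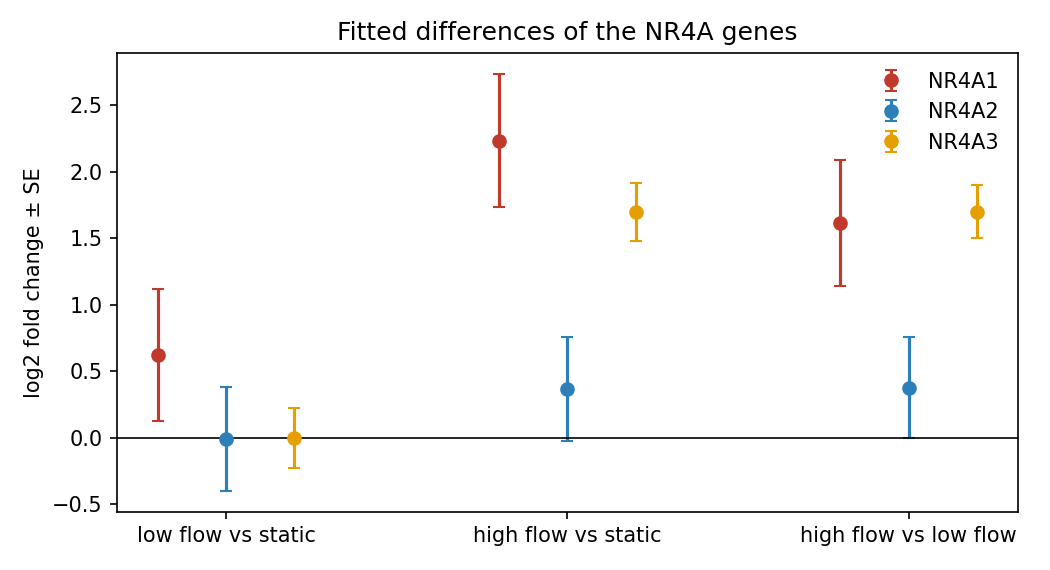
Log2 fold change (points) and its SE (bars) of each NR4A gene in the 3 comparisons, fitted over all 6 libraries. NR4A1 and NR4A3 lie at 2.23 and 1.70 for high flow against static, and NR4A2 lies at 0.36.

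The groups did not overlap for NR4A1 in any comparison, and for NR4A3 in both comparisons with high flow. Of all tested genes 59.3% did not overlap in high flow against static (29.9% with high flow higher), 42.7% in high flow against low flow (21.2% higher) and 53.4% in low flow against static (27.1% higher). With 2 libraries a group such lack of overlap is common. The comparisons share libraries with each other.

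The 3 genes also differed between libraries of 1 group. All 3 were higher in the first high flow library than in the second, by 2.11-fold for NR4A1, 1.53-fold for NR4A2 and 1.40-fold for NR4A3. All 3 were lower in the first static library than in the second, by 1.38-fold for NR4A1, 1.78-fold for NR4A2 and 1.58-fold for NR4A3. In low flow NR4A1 and NR4A3 were higher in the first library and NR4A2 in the second, by 1.198-fold, 1.18-fold and 1.12-fold. Of 22 other immediate early transcription factor genes, 21 were higher in the first library than in the second under high flow, 21 under low flow and 9 in static cells. Their median ratio of first over second library was 1.13 in high flow, 1.26 in low flow and 0.967 in static cells. What these gaps between libraries owe to handling was not tested.

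Levels of different genes were compared as CPM per kb of exon, over 7295 bases for NR4A1, 3967 for NR4A2 and 6314 for NR4A3. The 3 genes summed to 10.8 and 18.1 CPM per kb in static, 16.1 and 16.3 in low flow, and 39.6 and 22.4 in high flow libraries. NR4A2 was the most abundant in static cells, with 72.7 ± 3.26% of that sum, against 22.3 ± 3.05% for NR4A1 and 5.01 ± 0.212% for NR4A3 (SD, n = 2). In low flow NR4A2 had 65.4 ± 4.68%, NR4A1 30.1 ± 4.11% and NR4A3 4.51 ± 0.570%. In high flow NR4A1 had 46.9 ± 5.88%, NR4A2 45.2 ± 4.59% and NR4A3 7.90 ± 1.29%. NR4A1 was above NR4A2 in the first high flow library (51.0% and 42.0%) and below it in the second (42.7% and 48.5%), so their order there did not exceed the spread. With the longest transcript as the length NR4A1 was above NR4A2 in both, at a mean of 53.9% against 39.4%. NR4A3 was the least abundant in every library with either length.

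**Figure D3:**
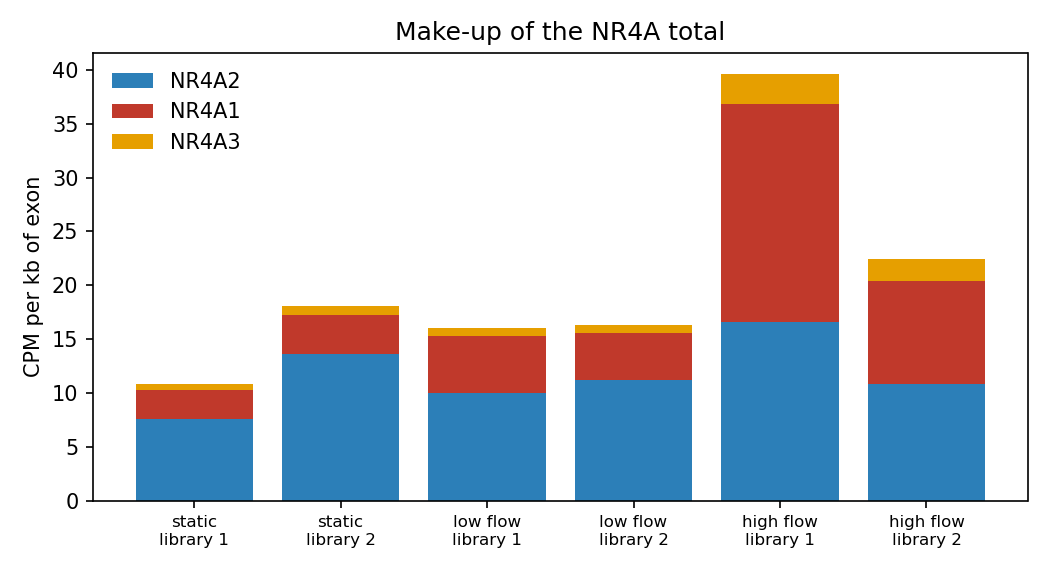
Stacked bars from 0 give CPM per kb of exon of NR4A2, NR4A1 and NR4A3 in each of the 6 libraries. NR4A1 takes 2.65 and 3.65 in static libraries and 20.2 and 9.57 in high flow libraries, while NR4A2 stays between 7.62 and 16.6.

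Among 48 nuclear receptor genes ordered per kb within each library, NR4A1 ranked 21 and 19 in static, 18 and 18 in low flow, and 4 and 13 in high flow libraries. NR4A2 ranked 13 and 7 in static, 11 and 12 in low flow, and 8 and 10 in high flow libraries. NR4A3 ranked 27 and 25 in static, 26 and 26 in low flow, and 22 and 22 in high flow libraries.

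**Figure D4:**
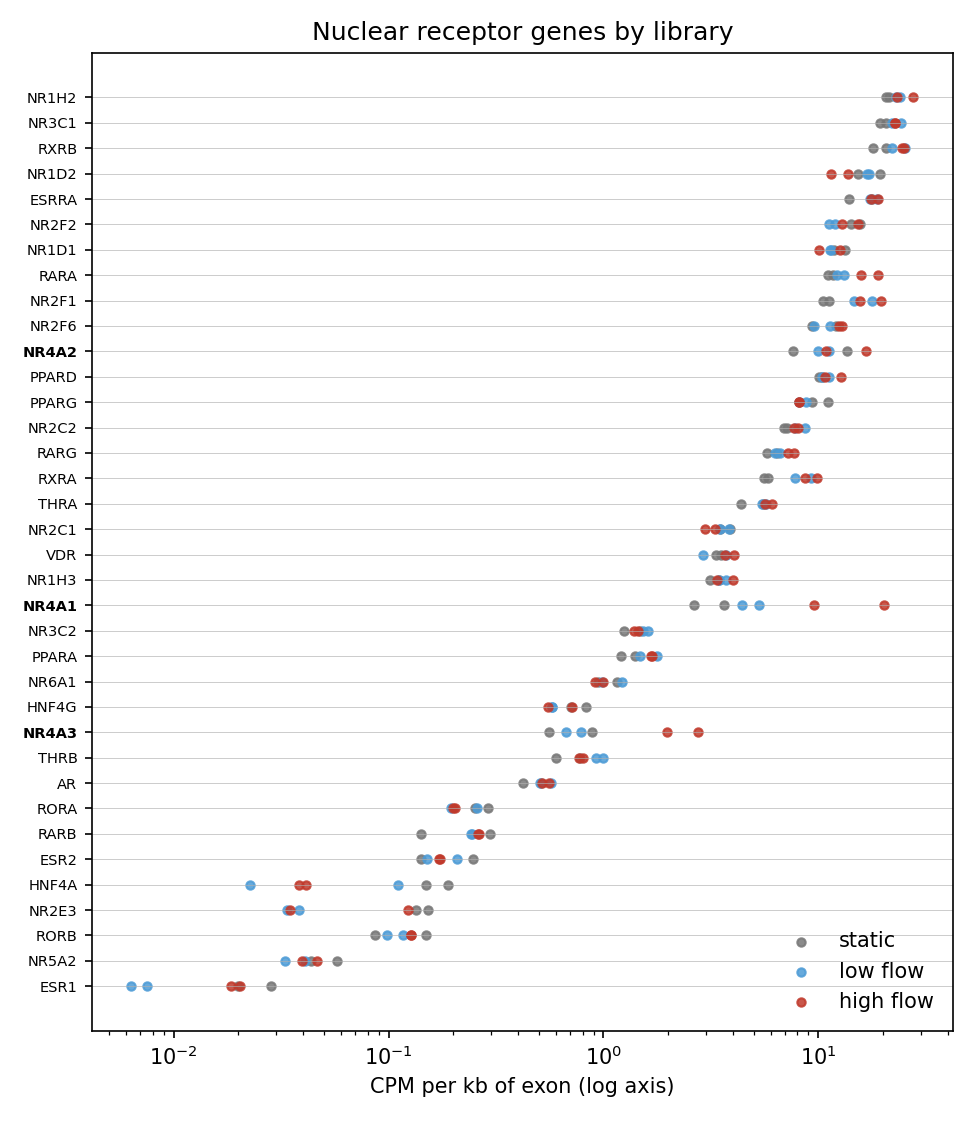
CPM per kb of exon (log axis) of the 36 nuclear receptor genes that passed the expression filter, with a point per library coloured by condition, and genes ordered by their static mean. High flow points of NR4A1 (20.2 and 9.57) and NR4A3 (2.77 and 1.97) stand to the right of their static points.

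Of the 45 other nuclear receptor genes 33 were tested. This list and the lists below were chosen with earlier results of these data known, so nothing is read from their counts. For high flow against static 4 rose and 2 fell, where 7.49% and 6.43% of all tested genes did, with a median log2 fold change of 0.17, where the median of all tested genes was 0.0025. The median of all tested genes was 0.0074 for low flow against static and 0.0058 for high flow against low flow. RARA, a retinoic acid receptor gene, had 89.6 and 74.9 CPM in high flow, against 55.5 and 52.3 CPM in static libraries (log2 fold change 0.61, SE 0.11, edgeR adjusted p = 0.00169). NR2F1, an orphan receptor gene, had 84.1 and 67.6 CPM in high flow, against 48.6 and 45.4 CPM in static libraries (log2 fold change 0.69, SE 0.12, edgeR adjusted p = 0.00213). RXRA and RXRB also rose and are described with the partners. NR1D2, a clock repressor gene, fell 1.38-fold, and HNF4A, low in every library, fell, with 0.281 and 0.300 CPM in high flow, against 1.38 and 1.09 CPM in static libraries. In low flow against static NR2F1 rose 1.49-fold, RXRA also rose and NR2F2 fell 1.29-fold, with a median of 0.08. In that comparison edgeR called 3.25% of all tested genes higher and 3.49% lower. Between the flow rates edgeR called 0 of the 33 and 0.334% of all genes. The 33 had 5 at an unadjusted p under 0.05, against 9.62% of all genes. DESeq2 called 1 of the 33, and 0.713% of the genes to which it gave an adjusted p. With each library left out in turn, 1 to 6 receptor genes rose and 0 to 3 fell for high flow against static. The call of RARA ended without high flow replicate 1 (edgeR adjusted p = 0.0712). The call of NR2F1 ended without high flow replicate 1 (edgeR adjusted p = 0.0712) and without static replicate 2 (0.0690). The call of NR1D2 ended without high flow replicate 1 (edgeR adjusted p = 0.251) and without static replicate 2 (0.253). The call of HNF4A ended without any 1 of high flow replicate 1, high flow replicate 2, static replicate 1 or static replicate 2 (edgeR adjusted p = 0.137 to 0.191). The call of NR2F1 in low flow ended without low flow replicate 2 (edgeR adjusted p = 0.0742), without static replicate 1 (0.0566) and without static replicate 2 (0.150). The call of NR2F2 in low flow ended without any 1 of high flow replicate 1, high flow replicate 2, low flow replicate 2, static replicate 1 or static replicate 2 (edgeR adjusted p = 0.0634 to 0.264) and with only the 4 libraries compared (0.0660).

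Partners, coregulators and binding proteins of NR4A receptors numbered 22, of which 21 were tested. Among them 3 rose and 2 fell in high flow against static, where 7.49% and 6.43% of all tested genes did, with a median log2 fold change of 0.08. RXRA, the retinoid X receptor that pairs with NR4A1 and NR4A2, had 109.7 and 95.9 CPM in high flow, against 64.4 and 61.9 CPM in static libraries (log2 fold change 0.70, SE 0.11, edgeR adjusted p = 0.000613), the highest log2 fold change among the 33 other receptor genes. RXRB, another retinoid X receptor gene, rose 1.28-fold. BCL2, a survival gene whose product NR4A1 can bind at mitochondria, fell 1.40-fold, and HIF1A, a hypoxia factor gene, fell 1.33-fold. RXRA also rose in low flow, with 86.7 and 102 CPM, against 64.4 and 61.9 CPM in static libraries (log2 fold change 0.58, SE 0.11, edgeR adjusted p = 0.00589). The DNA repair enzyme gene PARP1 fell 1.32-fold in low flow, with a median of -0.0037 for the list. For low flow against static edgeR called 3.25% of all tested genes higher and 3.49% lower. Of the 21, edgeR called 0 in high flow against low flow, where it called 0.334% of all genes. The 21 had 2 at an unadjusted p under 0.05, against 9.62% of all genes. DESeq2 called 1 of the 21, and 0.713% of the genes to which it gave an adjusted p. With each library left out in turn, 1 to 3 partner genes rose and 0 to 3 fell for high flow against static. The call of RXRA held under every alternative of the fit, each library left out in turn included. The call of RXRB ended without high flow replicate 1 (edgeR adjusted p = 0.204), without high flow replicate 2 (0.131), without static replicate 2 (0.257) and with the length and GC offsets (0.219). The call of BCL2 ended without high flow replicate 1 (edgeR adjusted p = 0.230), without high flow replicate 2 (0.0724) and without static replicate 2 (0.202). The call of HIF1A ended without high flow replicate 1 (edgeR adjusted p = 0.213), without high flow replicate 2 (0.0746), without static replicate 2 (0.161) and with the length and GC offsets (0.111). The call of RXRA in low flow ended without static replicate 2 (edgeR adjusted p = 0.0798). The call of PARP1 in low flow ended without any 1 of high flow replicate 1, high flow replicate 2, low flow replicate 2, static replicate 1 or static replicate 2 (edgeR adjusted p = 0.0626 to 0.363) and with only the 4 libraries compared (0.0680).

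Regulators of NR4A transcription, activating and restraining ones together, numbered 31, of which 30 were tested. High flow had 8 of them higher and 1 lower than static cells, where 7.49% and 6.43% of all tested genes were, with a median log2 fold change of 0.14. SIK1, a kinase that restrains the CREB coactivators, had 2.60 and 4.06 CPM in high flow, against 1.38 and 1.17 CPM in static libraries (log2 fold change 1.40, SE 0.28, edgeR adjusted p = 0.00408). SIK1 has a near-identical copy, SIK1B, with which it can share reads, so its counts are uncertain. NFATC1, a calcium-responsive factor gene, rose 1.81-fold. Of the 8 that rose, SIK1, HDAC4, HDAC5 and HDAC7 restrain this transcription. The class IIa deacetylases hold MEF2 factors silent, and their genes went both ways, as HDAC4 rose 1.52-fold, HDAC5 rose 1.41-fold and HDAC9 fell 1.87-fold. Also higher in high flow were CRTC1, a CREB coactivator gene (1.37-fold), MAPK7 (1.42-fold), PRKD2 (1.37-fold) and HDAC7 (1.25-fold). The last 3 were named after their values were seen, and their calls were not followed singly through the refits. HDAC7 was near the threshold (edgeR adjusted p = 0.0470). In low flow SIK1 rose 2.23-fold and HDAC9 fell 1.51-fold against static cells, with a median of 0.08. In that comparison edgeR called 3.25% of all tested genes higher and 3.49% lower. Between the flow rates edgeR called 0 of the 30 and 0.334% of all genes. The 30 had 5 at an unadjusted p under 0.05, against 9.62% of all genes. DESeq2 called 0 of the 30, and 0.713% of the genes to which it gave an adjusted p. With each library left out in turn, 0 to 10 of these genes rose for high flow against static, with 1 without high flow replicate 1, 0 without static replicate 2, and 4 with the length and GC offsets. The call of SIK1 ended without high flow replicate 2 (edgeR adjusted p = 0.0733) and without static replicate 2 (0.0913). The call of NFATC1 ended without high flow replicate 1 (edgeR adjusted p = 0.104) and without static replicate 2 (0.115). The call of HDAC4 ended without high flow replicate 1 (edgeR adjusted p = 0.0766) and without static replicate 2 (0.0568). The call of HDAC5 ended without high flow replicate 1 (edgeR adjusted p = 0.127), without static replicate 2 (0.0920) and with the length and GC offsets (0.191). The call of HDAC9 ended without high flow replicate 1 (edgeR adjusted p = 0.0581) and without static replicate 2 (0.0907). The call of CRTC1 ended without high flow replicate 1 (edgeR adjusted p = 0.157), without static replicate 2 (0.0653) and with the length and GC offsets (0.435). The call of SIK1 in low flow ended without low flow replicate 2 (edgeR adjusted p = 0.0737), without static replicate 1 (0.0704) and without static replicate 2 (0.200). The call of HDAC9 in low flow ended without any 1 of high flow replicate 1, high flow replicate 2, low flow replicate 2, static replicate 1 or static replicate 2 (edgeR adjusted p = 0.0560 to 0.280) and with only the 4 libraries compared (0.0636).

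Other immediate early transcription factor genes answer many of the signals that switch on NR4A genes, and all 22 were tested. Among them 6 rose and 3 fell in high flow against static, where 7.49% and 6.43% of all tested genes did, with a median log2 fold change of 0.16. EGR3 had 17.6 and 11.9 CPM in high flow, against 5.95 and 4.87 CPM in static libraries (log2 fold change 1.45, SE 0.19, edgeR adjusted p = 0.000356). BHLHE40 rose 1.81-fold, KLF10 1.74-fold and KLF4 1.51-fold. EGR1 fell, with 402 and 325 CPM in high flow, against 764 and 796 CPM in static libraries (log2 fold change -1.10, SE 0.20, edgeR adjusted p = 0.0159), and EGR2 fell 1.56-fold and NFIL3 1.47-fold. FOS, named after its values were seen, had 140.4 and 98.2 CPM in high flow, against 114 and 200.4 CPM in static libraries and was not called. In low flow against static 0 rose, with 10 of the 22 at an unadjusted p under 0.05, against 23.5% of all genes. DESeq2 called 8 of the 22 in either direction, and 11.6% of the genes to which it gave an adjusted p. The 3 that edgeR called lower there were EGR1 (2.16-fold), EGR2 (2.03-fold) and MYC (1.32-fold), with a median of -0.13. In that comparison edgeR called 3.25% of all tested genes higher and 3.49% lower. In high flow against static the calls of EGR3, BHLHE40 and KLF10 held under every alternative. With each library left out in turn, 3 to 8 immediate early genes rose and 0 to 3 fell in high flow against static. The call of KLF4 ended without high flow replicate 1 (edgeR adjusted p = 0.0637). The call of EGR1 ended without static replicate 1 (edgeR adjusted p = 0.104) and without static replicate 2 (0.187). The call of EGR2 ended without any 1 of high flow replicate 1, high flow replicate 2, static replicate 1 or static replicate 2 (edgeR adjusted p = 0.0897 to 0.182). The call of NFIL3 ended without high flow replicate 1 (edgeR adjusted p = 0.0839) and without static replicate 2 (0.0945). The call of EGR1 in low flow ended without static replicate 1 (edgeR adjusted p = 0.143) and without static replicate 2 (0.232). The call of EGR2 in low flow ended without static replicate 2 (edgeR adjusted p = 0.0802). The call of MYC in low flow ended without any 1 of high flow replicate 1, high flow replicate 2, low flow replicate 2, static replicate 1 or static replicate 2 (edgeR adjusted p = 0.0674 to 0.406) and with only the 4 libraries compared (0.0746).

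Between the flow rates 3 immediate early genes rose in high flow and 0 fell, where 0.242% and 0.0919% of all tested genes did. Since the list was chosen with earlier results of these data known, nothing is read from these counts. The median log2 fold change of the 22 was 0.37. Of the 22, 10 had an unadjusted p under 0.05, against 9.62% of all genes. DESeq2 called 6 of the 22 in either direction, and 0.713% of the genes to which it gave an adjusted p. EGR3 had 17.6 and 11.9 CPM in high flow, against 7.09 and 6.23 CPM in low flow libraries (log2 fold change 1.14, SE 0.18, edgeR adjusted p = 0.00723), MYC rose 1.65-fold and BHLHE40 1.54-fold. The count of 3 was 0 to 10 with each library left out in turn, 0 without high flow replicate 1 and 10 without low flow replicate 1. The call of EGR3 against low flow ended without high flow replicate 1 (edgeR adjusted p = 0.261) and with only the 4 libraries compared (0.0552). The call of MYC against low flow ended without high flow replicate 1 (edgeR adjusted p = 0.178). The call of BHLHE40 against low flow ended without high flow replicate 1 (edgeR adjusted p = 0.550), without high flow replicate 2 (0.0995), without static replicate 2 (0.0501), with the length and GC offsets (0.0925) and with only the 4 libraries compared (0.0730).

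Genes induced through cAMP and CREB numbered 18, of which 17 were tested, and they went both ways. Of these 5 rose and 4 fell in high flow against static, where 7.49% and 6.43% of all tested genes did, with a median log2 fold change of -0.01. PTGS2, the inducible cyclooxygenase gene, had 318 and 342 CPM in high flow, against 190.1 and 222 CPM in static libraries (log2 fold change 0.68, SE 0.10, edgeR adjusted p = 0.000564). INHBA, an activin subunit gene, rose 1.42-fold, and SIK1 and CRTC1 rose as above. PER1, a clock gene, had 34.5 and 30.9 CPM in high flow, against 58.6 and 52.99 CPM in static libraries (log2 fold change -0.77, SE 0.11, edgeR adjusted p = 0.000274). PDE4B, a cAMP phosphodiesterase gene, fell 1.81-fold, AREG, a growth factor gene, fell 1.47-fold, and NFIL3 fell as above. In low flow PTGS2 rose 1.89-fold, SIK1 rose as above, AREG fell 1.65-fold and PER1 fell 1.28-fold, with a median of 0.04. For low flow against static edgeR called 3.25% of all tested genes higher and 3.49% lower. Between the flow rates PDE4B was the 1 gene called, 1.78-fold lower in high flow, with a median of 0.10. There edgeR called 0.242% of all tested genes higher and 0.0919% lower. Of the 17, 8 had an unadjusted p under 0.05, against 9.62% of all genes. DESeq2 called 2 of the 17, and 0.713% of the genes to which it gave an adjusted p. With each library left out in turn, 2 to 5 cAMP genes rose and 2 to 4 fell for high flow against static. The calls of PTGS2, PER1 and PDE4B in high flow against static, and of PTGS2 in low flow, held under every alternative. The call of INHBA ended without high flow replicate 1 (edgeR adjusted p = 0.243) and without static replicate 1 (0.109). The call of AREG ended without high flow replicate 1 (edgeR adjusted p = 0.106), without high flow replicate 2 (0.0639) and without static replicate 2 (0.0708). The call of PDE4B against low flow ended without high flow replicate 1 (edgeR adjusted p = 0.0985) and without high flow replicate 2 (0.248). The call of AREG in low flow ended without static replicate 2 (edgeR adjusted p = 0.0522). The call of PER1 in low flow ended without any 1 of high flow replicate 1, high flow replicate 2, low flow replicate 2, static replicate 1 or static replicate 2 (edgeR adjusted p = 0.0812 to 0.306) and with only the 4 libraries compared (0.0809).

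Genes reported as NR4A targets in other tissues numbered 28, of which 17 were tested. In high flow against static 2 rose and 2 fell, where 7.49% and 6.43% of all tested genes did, with a median log2 fold change of -0.05. ITGA5, an integrin subunit gene, had 222 and 208 CPM in high flow, against 148 and 137 CPM in static libraries (log2 fold change 0.60, SE 0.12, edgeR adjusted p = 0.00651), and TOX2 rose 1.35-fold. BIRC3, an apoptosis inhibitor gene, had 25.0 and 31.5 CPM in high flow, against 49.1 and 54.0 CPM in static libraries (log2 fold change -0.87, SE 0.12, edgeR adjusted p = 0.000284). SKP2, whose product marks cell cycle inhibitors for degradation, fell 1.37-fold. In low flow ITGA5 rose 1.39-fold, BIRC3 fell 1.42-fold and SKP2 fell 1.36-fold, with a median of 0.05. For low flow against static edgeR called 3.25% of all tested genes higher and 3.49% lower. Of the 17, edgeR called 0 in high flow against low flow, where it called 0.334% of all genes. The 17 had 3 at an unadjusted p under 0.05, against 9.62% of all genes. DESeq2 called 0 of the 17, and 0.713% of the genes to which it gave an adjusted p. With each library left out in turn, 0 to 3 target genes rose and 1 to 5 fell for high flow against static. The call of BIRC3 held under every alternative of the fit, each library left out in turn included. The call of ITGA5 ended without high flow replicate 1 (edgeR adjusted p = 0.0921) and without static replicate 2 (0.127). The call of TOX2 ended without high flow replicate 1 (edgeR adjusted p = 0.292), without static replicate 1 (0.0927), without static replicate 2 (0.112) and with the length and GC offsets (0.146). The call of SKP2 ended without high flow replicate 1 (edgeR adjusted p = 0.247) and without static replicate 2 (0.134). The call of BIRC3 in low flow ended without low flow replicate 2 (edgeR adjusted p = 0.0910) and without static replicate 2 (0.167). The call of ITGA5 in low flow ended without any 1 of high flow replicate 1, high flow replicate 2, low flow replicate 2, static replicate 1 or static replicate 2 (edgeR adjusted p = 0.0626 to 0.453), with the length and GC offsets (0.0524) and with only the 4 libraries compared (0.0726). The call of SKP2 in low flow ended without any 1 of high flow replicate 1, high flow replicate 2, low flow replicate 2, static replicate 1 or static replicate 2 (edgeR adjusted p = 0.0581 to 0.299) and with only the 4 libraries compared (0.0626).

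The genes with profiles most like each NR4A gene were found by the Euclidean distance between log2(CPM + 0.1) values, centred on each gene's mean, over the 6 libraries and 13575 genes averaging 1 CPM or more. NR4A3 was the nearest to NR4A1, at 0.757, and NR4A1 was number 4 from NR4A3. Next to NR4A1 came the collagen gene COL1A1 (0.818), the chaperone gene DNAJB1 (0.889), the endothelin gene EDN1 (0.945) and EGR3 (0.987). Nearest to NR4A3 were DNAJB1 (0.584), the pseudogenes TUBBP1 (0.597) and RPL35P5 (0.616), which can share reads with their parent genes, then NR4A1 and COL1A1 (0.848).

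**Figure D5:**
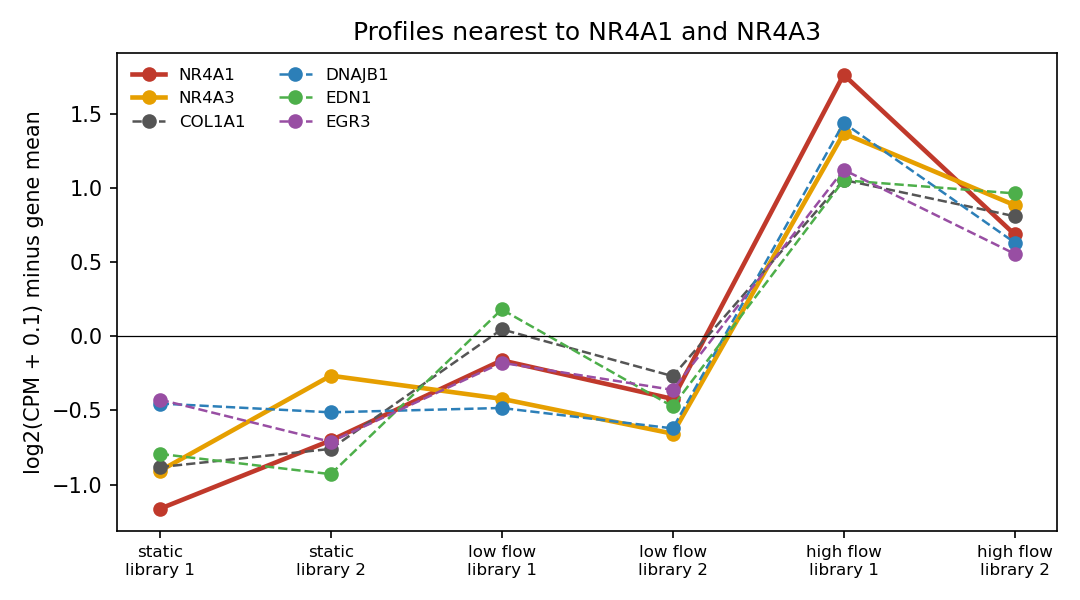
Log2(CPM + 0.1) of NR4A1 and NR4A3 (solid lines) and of 4 genes near to them (dashed lines) in each of the 6 libraries, each centred on its own mean. All 6 genes are highest in the high flow libraries, and all are lower in the second of these than in the first.

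COL1A1 had 11.7 and 12.7 CPM in static, 22.3 and 17.9 CPM in low flow, and 45.0 and 38.0 CPM in high flow libraries. EDN1 had 6.17 and 5.61 CPM in static, 12.2 and 7.73 CPM in low flow, and 22.4 and 21.1 CPM in high flow libraries. DNAJB1 had 227 and 218 CPM in static, 222 and 202 CPM in low flow, and 842 and 481 CPM in high flow libraries. COL1A1, EDN1 and EGR3 had groups in the same order as NR4A1, and DNAJB1 had static and low flow levels close to each other, as NR4A3 did. All genes come from the same 6 libraries, so these distances describe likeness only.

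NR4A2 had other neighbours, ALDH3A1 (0.284), the pseudogene SDAD1P1 (0.345), EIF4E3 (0.350), IGF2 (0.354) and TAS2R4 (0.364). IGF2, a growth factor gene, had 16.04 and 24.9 CPM in static, 21.5 and 25.4 CPM in low flow, and 41.9 and 25.7 CPM in high flow libraries. Like NR4A2, it was highest in the first high flow library and lowest in the first static library. By distance from NR4A2, NR4A3 ranked 13283 and NR4A1 ranked 13459 of the 13575 genes. Seen from the other side, NR4A2 ranked 251 by distance from NR4A3 and 481 by distance from NR4A1. The ranks thus depend on the gene they start from.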

How the data were processed

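The authors deposited raw counts per gene symbol for 6 libraries, made with STAR and featureCounts on hg38 per the submitters' processing notes; versions, settings and annotation are not given in the sources used here. Poly(A) RNA was made into stranded libraries, per the labels. All 60591 rows name a gene. Counts were tested here with edgeR 4.0.16 in R 4.3.3: TMM factors, an expression filter with a minimum count of 10 (20676 genes), robust quasi-likelihood fits of all 6 libraries, two-sided tests and Benjamini-Hochberg adjustment over all tested genes at 0.05. SEs come from the test statistic. A check on simulated counts required only that most changes built into them had the right direction. It did not cover the rate of false calls. Exon lengths came from GENCODE 29, in which 55101 symbols matched 1 gene; promoter windows came from RefSeq (GRCh38.p14), for 2 of the 3 NR4A genes.

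The genes and lists were chosen with earlier results of these data known. Genes named are the 3 receptors, up to 4 called members per list, direction and comparison, and the 5 nearest profiles. The result of 1 list member that this rule names is not reported here. Alternatives were RLE normalization, no filter, DESeq2 1.42.0, only the 4 libraries compared, a replicate block, length and GC offsets (94.8% of tested genes had both), each library left out, transcript length, and Pearson correlation for profiles. P-values measure the spread between libraries, which may be technical. The libraries of a group were not copies of 1 library (chi-square per degree of freedom 12.9 to 32.0).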

Additional observations from a re-analysis of the deposited data

How the results depend on the processing

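Over the 12 refits, 100 of the 108 values of the NR4A genes kept their side of the threshold. For NR4A1 7 differences became calls. Of these, 5 came from fits with 1 high flow library left out. Another 1 came from the fit of only the static and low flow libraries, and 1 from DESeq2. For NR4A3 1 call ended. Uncalled values moved more: with each library left out in turn, low flow against static was -0.36 to 0.48 on the log2 scale for NR4A2 and -0.27 to 0.39 for NR4A3. Of the called values of the other named genes, 577 stayed called, 154 did not, and none changed sign.

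In low flow against static 672 genes were called higher and 722 lower. These came to 267 and 337 with only the 4 libraries compared, and there were 1327 higher without the filter and 411 with the replicate block. In high flow against static 1549 were higher, and 916 with the length and GC offsets. In high flow against low flow 50 were higher and 19 lower; there were 89 higher with DESeq2, 27 with the offsets, 168 and 73 without the filter, and 24 and 12 with only the 4 libraries compared. Leaving out 1 library gave 44 (without static replicate 2) to 1584 (without low flow replicate 1) higher and 51 to 1527 lower, by the same libraries, in low flow against static. It gave 178 (without high flow replicate 1) to 2178 higher and 122 to 1838 lower in high flow against static, and 3 (without high flow replicate 1) to 193 higher and 1 to 101 lower in high flow against low flow. The cause was not tested. The labels name nothing that a replicate number shares, so the libraries were not paired: deviations of same-numbered libraries correlated at -0.14 for low flow and static, -0.05 for high flow and static and 0.14 for high flow and low flow, and with 2 libraries a group an effect shared by the flow groups is not settled by these. The block ended 6 calls of other named genes, RXRB in high flow against static (edgeR adjusted p = 0.0516) and HDAC9, ITGA5, NR2F2, PER1 and SKP2 in low flow against static (0.0556 to 0.0645).

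With the longest transcript as the length NR4A2 had 68.0% of the family in static and 59.7% in low flow. Pearson correlation gave none of the 5 nearest genes found by distance, for each of the 3 NR4A genes. The static libraries have the fewest counts, with 64 and 128 for NR4A3. The SE of NR4A3 was 0.22 for high flow against static and 0.20 for high flow against low flow.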
